A study of Mus musculus with 6 samples.

Results

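Solute carriers are the membrane proteins that move sugars, amino acids, metals, ions, vitamins and lipids into and out of cells and organelles. The genes described here were chosen by name and level: every symbol of the Slc or Slco form whose 4-library mean reached 1 TPM, after summing TPM over the RefSeq transcripts of each gene and leaving out 5 antisense or pseudogene names. Of 386 such genes in the table, 179 reached the limit and are called members below, among 32903 gene symbols in all. TPM is transcript abundance per length, relative to a total of 1000000 per library. Nearest to the limit were the members Slc49a4 (mean 1.01 TPM) and Slc9a2 (1.06 TPM) on the inside, and Slc18b1 (0.939 TPM) and Slc34a1 (0.936 TPM) on the outside. The other 207 genes include 48 listed at 0 in all 4 libraries.

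MuTuDC1940 is a mouse dendritic cell line resembling type 1 conventional dendritic cells (cDC1), the subset that presents engulfed antigen on MHC class I. Polyadenylated RNA was sequenced from untreated cells and from cells given poly(I:C), a double-stranded RNA polymer read by cells as a sign of viral infection, at 5 µg/ml for 18 hours. Both groups are the same line with no other agent named, and the series holds 3 samples of each. The comparison uses 2 libraries per group, headed NT01 and NT02 (untreated) and PolyIC01 and PolyIC02 (treated), because the deposited header does not settle which group 2 further columns belong to. No label says whether a group's samples came from separate cultures, so the p-values reflect only how far these libraries differ from each other, a spread that may be technical.

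Most carriers work by coupling the passage of their substrate to a gradient of protons, sodium or a second solute, or by exchanging one solute for another. In dendritic cells they feed glycolysis and protein synthesis, set the pH and metal content of endosomes and phagosomes, and carry fragments of microbes out of endolysosomes to sensors in the cytosol. Carriers of the inner mitochondrial membrane connect these pools with respiration, heme synthesis and cofactor supply.

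Markers of the labelled cell type were present: 11 of 12 cDC1 markers reached 1 TPM, with Itgae under it, and their summed level, most of it from Irf8 and Naaa, ran from 5103 to 5308 TPM. Single cDC1 markers moved in both directions, 5 up and 4 down, from -1.42 (Cd24a, 383 and 381 to 141 and 144 TPM) to 0.78 (Xcr1, 194 and 191 to 335 and 326 TPM) in log2 fold change. Of 9 macrophage and monocyte markers 7 reached 1 TPM, with a summed level of 260 to 263 TPM in untreated and 358 to 366 TPM in treated libraries; the defining markers Csf1r and Mertk lay under 1 TPM, and Csf1r was listed at 0 in both treated libraries. Of the 7 macrophage and monocyte markers tested 5 rose, among them C1qb (12.8 and 11.8 to 122 and 127 TPM), Ms4a7 (10.3 and 9.19 to 94.9 and 89.6 TPM) and Fcgr1 (0.356 and 0.299 to 4.76 and 4.66 TPM), while Lyz2 fell from 218 and 217 to 98.9 and 107 TPM. Summed B cell markers went from between 3.34 and 3.79 to between 5.89 and 7.01 TPM, and T cell markers ran from 0.678 to 1.59 TPM, with Cd3e and Cd3g at 0. Epithelial markers went from between 10.3 and 11.6 to between 7.74 and 7.8 TPM, with Krt8 at 0, and fibroblast markers summed to 0.12 to 0.191 TPM, with Col1a2, Col3a1 and Pdgfra at 0. In bulk RNA, fewer cells of a type and less RNA per cell cannot be told apart. The sequencing depth of TPM libraries is unknown, so no counting interval is given.

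Poly(I:C) moved the members in both directions. In limma's test on log2(TPM + 1), fitted on 12520 genes and adjusted over all of them by the Benjamini-Hochberg method, 56 of 179 members rose (31.3%), 62 fell (34.6%) and 61 did not pass the adjusted p limit of 0.05. Over all genes tested 28.4% rose and 32.4% fell, so the members' shares lie near the background; among genes that met the members' own limit of 1 TPM, these shares were 28.9% and 34.5%. The median log2 fold change was -0.01 for members and -0.02 for all genes tested. No overlap between untreated and treated values was seen for 143 members (79.9%), against 81.3% of all genes tested. Fits without 1 library keep 1 library in its group, so their spread comes from the other group alone. A call gained or lost in them can go with an unaltered change. Class counts from these fits are given without the share over all genes.

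Large changes were few, and about as frequent among members as over all genes tested. On this scale, which understates the change of low genes, 10 of 179 members rose at least 2-fold, beside 5.69% of all genes tested. Another 5 fell at least 2-fold, beside 2.76%. The rises included Slc40a1, Slc2a6, Slc2a1, Slc15a3, Slc25a38, Slc17a8, Slc4a11, Slc25a47 and Slc19a2, and the falls were in Slc9a9, Slc9a3r2, Slc29a1, Slc14a1 and Slc43a2. With a pseudocount of 0.1 instead of 1, 11 members fell at least 2-fold. Of the 179 members, 4 had an untreated mean under 1 TPM and reached the limit through the treated libraries, and 3 had a treated mean under it, so the limit itself favoured a change in these 7.

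**Figure D1:**
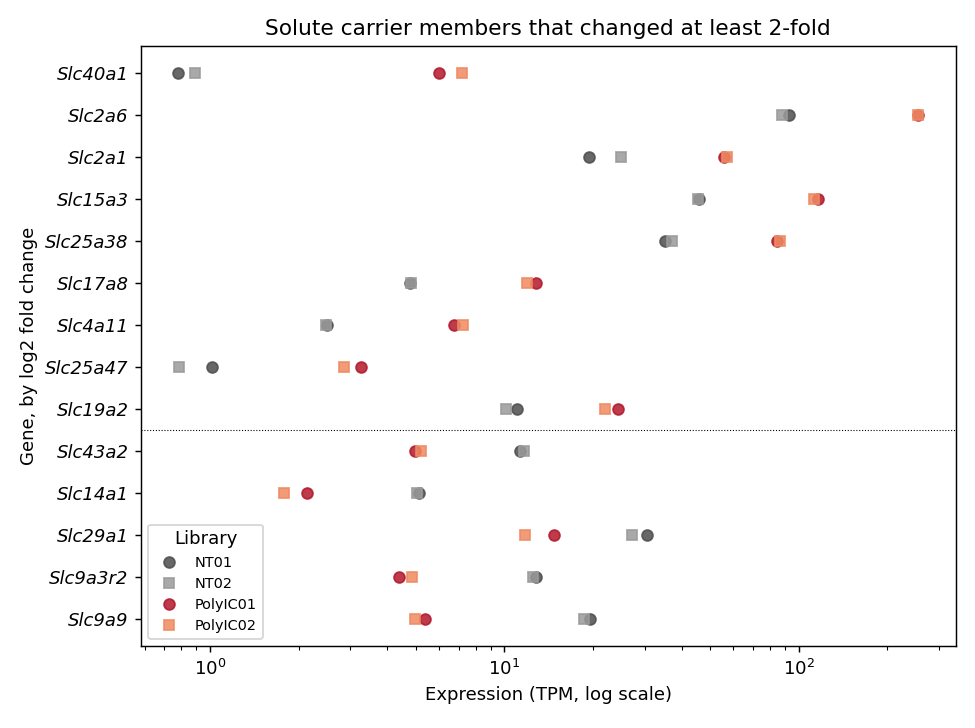
Expression in TPM (log axis) of 14 of the 15 members with at least a 2-fold change in TPM + 1 and an adjusted p under 0.05, 1 point per library, ordered by log2 fold change. In every row both treated libraries lie on the same side of both untreated ones, from Slc40a1 (0.781 and 0.89 to 6 and 7.16 TPM) to Slc9a9 (19.6 and 18.6 to 5.38 and 4.98 TPM).

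Promoter sequences are shown for the 6 of these 15 genes that have exactly 1 start in the RefSeq promoter table (GRCm38.p6), as the stretch of regulatory DNA next to the largest changes. Each line is the 250 bases before the start, read 5′ to 3′ on the gene's strand. Capitals mark a GC box (GGGCGG), the site of Sp1-type factors, or an antioxidant response element (TGACNNNGC), the site of the NRF2 factor, on either strand.
Slc2a6 promoter, chr2:27027999-27028248, minus strand: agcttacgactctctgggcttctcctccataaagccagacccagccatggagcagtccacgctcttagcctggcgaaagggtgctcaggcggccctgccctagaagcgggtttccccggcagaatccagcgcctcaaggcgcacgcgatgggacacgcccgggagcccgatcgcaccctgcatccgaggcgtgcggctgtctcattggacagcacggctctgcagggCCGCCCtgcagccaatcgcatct
Slc2a1 promoter, chr4:119108495-119108744, plus strand: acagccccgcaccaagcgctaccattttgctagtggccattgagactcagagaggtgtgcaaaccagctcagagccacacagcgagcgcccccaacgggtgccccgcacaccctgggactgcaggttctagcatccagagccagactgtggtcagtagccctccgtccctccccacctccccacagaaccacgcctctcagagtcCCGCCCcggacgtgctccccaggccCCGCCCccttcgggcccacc
Slc19a2 promoter, chr1:164248796-164249045, plus strand: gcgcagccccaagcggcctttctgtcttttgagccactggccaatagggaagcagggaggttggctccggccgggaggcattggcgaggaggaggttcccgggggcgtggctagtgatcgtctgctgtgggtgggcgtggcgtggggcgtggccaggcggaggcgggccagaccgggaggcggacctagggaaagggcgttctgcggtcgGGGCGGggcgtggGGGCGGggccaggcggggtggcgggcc
Slc25a38 promoter, chr9:120110132-120110381, plus strand: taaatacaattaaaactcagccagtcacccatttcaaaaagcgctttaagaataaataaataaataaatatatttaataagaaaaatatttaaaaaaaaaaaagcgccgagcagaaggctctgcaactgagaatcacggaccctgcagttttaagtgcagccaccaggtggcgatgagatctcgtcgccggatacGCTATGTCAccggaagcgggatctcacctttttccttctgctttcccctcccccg
Slc25a47 promoter, chr12:108850879-108851128, plus strand: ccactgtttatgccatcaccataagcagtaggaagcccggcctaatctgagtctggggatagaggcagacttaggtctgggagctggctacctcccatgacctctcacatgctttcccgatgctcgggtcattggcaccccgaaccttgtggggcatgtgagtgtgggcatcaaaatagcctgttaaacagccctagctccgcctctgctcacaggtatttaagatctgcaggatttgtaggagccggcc
Slc9a9 promoter, chr9:94669642-94669891, plus strand: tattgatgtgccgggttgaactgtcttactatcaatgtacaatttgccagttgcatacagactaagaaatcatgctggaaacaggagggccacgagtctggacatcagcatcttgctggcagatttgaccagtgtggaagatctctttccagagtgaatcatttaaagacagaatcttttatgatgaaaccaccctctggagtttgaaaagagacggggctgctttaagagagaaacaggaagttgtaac
Of these windows, those of Slc2a1 and Slc19a2 each hold 2 GC boxes, that of Slc2a6 holds 1, and that of Slc25a38 holds an antioxidant response element. Slc25a47 and Slc9a9 hold neither. The Slc9a9 and Slc25a47 windows lie inside the RefSeq extents of those genes, which begin upstream of the starts in the promoter table, and the windows of Slc2a6 and Slc25a38 overlap the outermost bases of theirs. Promoters of 35.4% of all 27025 genes in the table hold a GC box in the same window and 11.5% hold the antioxidant element. A gene is counted where any of its starts does. Among the 135 members in the table the shares were 71.1% and 21.5%. Members had to reach 1 TPM and the 27025 genes did not, so the 2 sets are not alike in level. No share was computed for other genes that reach 1 TPM. The interferon-stimulated response element (TTTC, any 2 bases, TTTC), the STAT site (TTCNNNGAA) and a kB site (GGG, any 2 bases, TTTCC) were searched on both strands. They were found in none of the 6 members in the table that rose at least 2-fold or the 4 that fell as much. Their shares were 2.22%, 5.93% and 1.48% of the 135 members and 3.46%, 8.13% and 1.65% of all genes. At shares this low, 6 and 4 genes are too few for the absence to set them apart. A match is a string of letters in this window, and no match says nothing of the factor.

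Members were abundant to different degrees. The median member stood at a mean of 15.4 TPM, 18 members reached 100 TPM, 66 lay under 10 TPM, and together they held 0.652% to 0.702% of a library's TPM. The highest was Slc25a5, which encodes the ADP/ATP exchanger of the inner mitochondrial membrane, at a mean of 614 TPM.

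**Figure D2:**
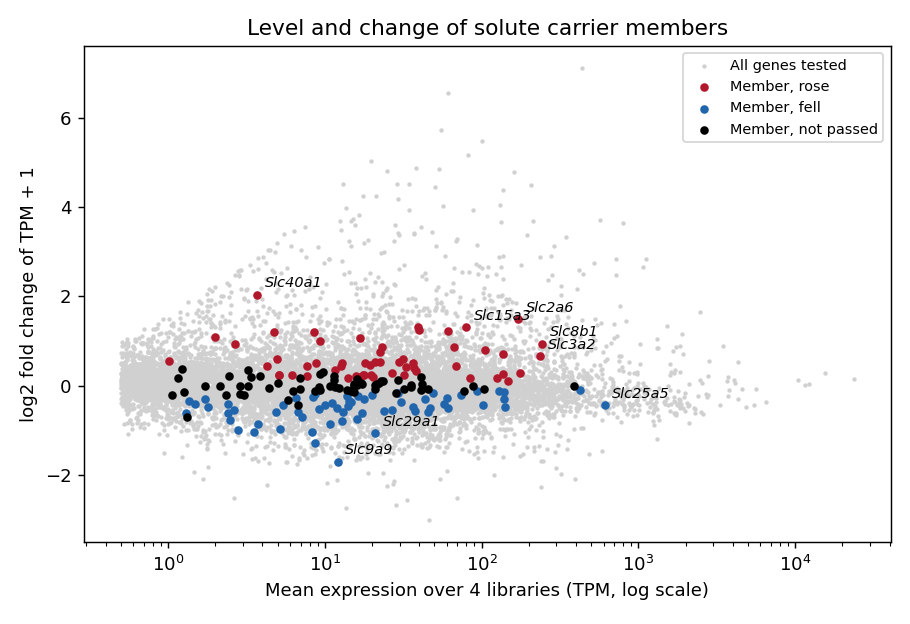
Mean TPM over the 4 libraries (log axis) against the log2 fold change of TPM + 1, with all 12520 genes tested in grey and the 179 members coloured by call. Members lie within the cloud of all genes, between -1.70 (Slc9a9) and 2.04 (Slc40a1).

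Glucose carriers changed most among the 15 sugar and carboxylate carriers, of which 5 rose, 4 fell and 6 did not pass. With all 4 libraries, 33.3% of the class rose and 26.7% fell, beside 28.4% and 32.4% of all genes tested. Slc2a6, which encodes the lysosomal glucose carrier family member GLUT6, was at 92.8 and 87.7 TPM untreated and at 254 and 255 TPM treated. Its groups lay far apart, 2.82-fold by the ratio of means (log2 fold change 1.49, SE 0.0355, adjusted p = 3.08e-06), and it was the most abundant of its class. Slc2a1, encoding GLUT1, the widespread carrier for glucose uptake at the plasma membrane, was at 19.4 and 24.9 TPM untreated and 55.6 and 57 TPM treated (log2 fold change 1.32, adjusted p = 0.000526). The untreated pair of Slc2a1 differed more than its treated pair, yet no values overlapped between the groups. Slc2a3, a further glucose carrier gene, lay under the limit at 0.22 to 0.306 TPM. Slc2a6 lies on chromosome 2 at 27021363 to 27028000 and Slc2a1 on chromosome 4 at 119108745 to 119137330 (GRCm38, RefSeq).

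The glucose carriers did not all rise. Slc2a8, for the intracellular family member GLUT8, fell from 7.59 and 6.79 to 3.47 and 2.85 TPM (log2 fold change -0.98), and Slc50a1, for a small sugar carrier of the SWEET type, from 71.5 and 70.8 to 50.4 and 49.9 TPM (-0.50). Slc37a2, for a sugar phosphate exchanger, rose from 17.1 and 15.6 to 31 and 29.7 TPM (0.86).

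Neither of the main lactate carrier genes passed as higher. Slc16a1, encoding MCT1, was low and fell from 2.37 and 2.14 to 1.28 and 1.42 TPM (log2 fold change -0.47, adjusted p = 0.00757). Slc16a3, encoding the lactate exporter MCT4, was at 26.1 TPM in NT01 and 52.9 TPM in NT02, with the treated libraries between them at 40 and 46 TPM. This gene's direction rests on which untreated library is used. With 1 untreated library in the fit, the log2 fold change was 0.70 without NT02 and -0.30 without NT01. It was also -0.12 in curated transcripts. The chaperone genes of these carriers fell: Emb from 87.6 and 87.9 to 34.3 and 36.8 TPM (log2 fold change -1.28), and Bsg from 420 and 490 to 332 and 363 TPM (-0.39). The call for Bsg was lost without PolyIC01 or PolyIC02, in fits that hold 1 treated library. Of 5 tested genes of glucose and lactate use, 3 rose (60%, beside 28.4% of all genes tested) and 1 fell (20%, beside 32.4%). They were led by the hexokinase gene Hk3 (51.2 and 48.4 to 166 and 165 TPM, 1.71). Next was Hk2 (33.6 and 31.3 to 45.9 and 44.2 TPM, 0.46).

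**Figure D3:**
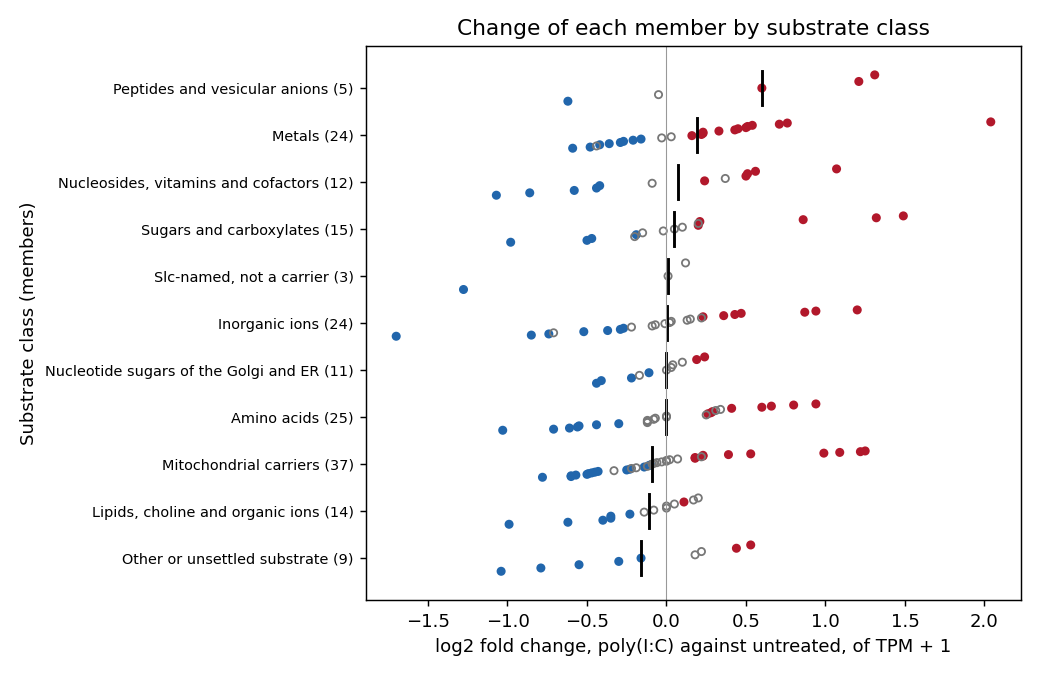
log2 fold change of TPM + 1 (poly(I:C) against untreated) of each member, by substrate class with the number of members in brackets. Filled points passed an adjusted p of 0.05 (red higher, blue lower), open points did not, and black bars are class medians, from -0.16 for other or unsettled substrates to 0.60 for peptides and vesicular anions.

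Amino acid carriers number 25. Of these 8 rose (32%, beside 28.4% of all genes tested), 7 fell (28%, beside 32.4%) and 10 missed the threshold. Their median log2 fold change was 0.00. In curated transcripts 1 fell in place of 7, where falls among all members dropped from 62 to 45 of 169 tested. The rises included the light and heavy chains of the cystine importer. Slc7a11, the cystine and glutamate exchanger xCT that supplies cysteine for glutathione, was at 1.69 and 1.36 TPM untreated and 3.98 and 3.67 TPM treated (log2 fold change 0.94, SE 0.105, adjusted p = 0.000736). Slc3a2, the CD98 heavy chain that brings several light chains to the surface, was far more abundant and rose from 190 and 177 to 293 and 289 TPM (0.66, adjusted p = 6.65e-05). Both pairs were well separated. A further partner of that heavy chain, Slc7a5, the carrier LAT1 for large neutral amino acids, went from 127 and 121 to 147 and 150 TPM (0.26, adjusted p = 0.00175).

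Genes of glutathione synthesis and the cystine response moved beside them in both directions. Of 9 tested, 6 rose (66.7%, beside 28.4% of all genes tested) and 3 fell (33.3%, beside 32.4%). They were led by Nfe2l2, which encodes NRF2 (38.9 and 39.3 to 78.5 and 74.3 TPM, log2 fold change 0.95). Chac1, a glutathione-degrading enzyme, came next (11.1 and 9.26 to 15.9 and 14.7 TPM, 0.55). Close to it was Keap1 (44.6 and 44.3 to 63.4 and 64.8 TPM, 0.52). The falls were in the synthesis genes Gss (-0.42) and Gclm (-0.23) and in Gpx4 (-0.38), while the synthesis gene Gclc rose (0.19).

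Taurine, glutamine and lysosomal carriers also rose. Slc6a6, the taurine carrier, went from 76.3 and 76.5 to 134 TPM in both treated libraries (log2 fold change 0.80, SE 0.0278), with almost no spread within either group. Slc1a5, the glutamine carrier ASCT2, was at 172 and 148 TPM untreated and 198 and 190 TPM treated (0.28, adjusted p = 0.0262). That call was lost without PolyIC01 (adjusted p = 0.161) or PolyIC02 (0.109), and the change was 0.17 without NT02. Slc36a1, a proton-coupled amino acid exporter of lysosomes, rose from 3.85 and 3.55 to 6.45 and 5.82 TPM (0.60), a call absent in curated transcripts (0.24, adjusted p = 0.119).

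Deepest among the falls was Slc43a2, encoding LAT4, a facilitative carrier of branched-chain amino acids, from 11.3 and 11.7 to 4.98 and 5.2 TPM (log2 fold change -1.03, SE 0.068, adjusted p = 9.11e-05). Its change in curated transcripts was -0.38 (adjusted p = 0.0928). Slc7a7, the y+LAT1 light chain that exchanges basic for neutral amino acids, was at 7.26 and 11.2 TPM untreated and 5.52 and 4.8 TPM treated (-0.71, adjusted p = 0.0303). A predicted transcript of Slc7a7 stood at 4.68 TPM in NT02 and at most 0.0671 TPM in the other 3 libraries. The change of Slc7a7 was -0.43 without NT02 and -0.34 in curated transcripts (adjusted p = 0.0687), and its call was lost without PolyIC01 (adjusted p = 0.104) or PolyIC02 (0.165). Slc36a2, a proton-coupled carrier of small neutral amino acids, fell from 1.95 and 1.62 to 0.841 and 0.795 TPM (-0.61, and -1.03 with a pseudocount of 0.1), and its adjusted p was 0.0574 in curated transcripts. With a treated mean of 0.818 TPM, Slc36a2 reached the limit through the untreated libraries.

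The sensing carrier did not pass the test. Slc38a9, the lysosomal arginine sensor upstream of mTORC1, was at 6.93 and 6.11 TPM untreated and 6.08 and 5.79 TPM treated (log2 fold change -0.12, SE 0.0857, adjusted p = 0.286), although its values did not overlap. Slc38a2, the SNAT2 carrier of small neutral amino acids, was at 84.5 and 77.5 against 76.2 and 72.2 TPM (-0.12, adjusted p = 0.0904). Its change was -0.19 without NT02 and -0.06 without NT01. Without NT01 the change of Slc38a9 was -0.04. Of 12 tested genes of lysosomal amino acid sensing to mTORC1, 6 rose (50%) and 3 fell (25%). Over all genes tested 28.4% rose and 32.4% fell. The Ragulator subunit gene Lamtor4 changed most (73.3 and 77.1 to 28.5 and 29.1 TPM, -1.35). Next was the Ragulator subunit gene Lamtor2 (203 and 207 to 102 and 105 TPM, -0.98). The cationic amino acid carrier gene Slc7a2 lay under the limit at 0.0908 to 0.136 TPM. Of 6 listed genes of arginine use 3 were tested and all rose, where 28.4% of all genes tested did so. Arg1, Arg2 and Nos2 were too low for testing, at means of 0.0585, 0.229 and 0.0237 TPM. The largest rise was in Ass1, which makes argininosuccinate from citrulline (5.47 and 5.59 to 69.7 and 67.4 TPM, 3.41). Odc1, the first enzyme of polyamine synthesis, came next (452 and 461 to 877 and 895 TPM, 0.96).

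Endolysosomal peptide carriers rose. Slc15a3 encodes a proton-coupled carrier of histidine and small peptides, including muramyl dipeptide, the bacterial fragment sensed by NOD2; it went from 45.8 and 45.4 to 116 and 113 TPM (log2 fold change 1.31, SE 0.0333, adjusted p = 3.71e-06). Slc15a4, its relative that also anchors the adaptor TASL for endosomal Toll-like receptor signalling, went from 24.2 and 25.7 to 38.3 and 38.2 TPM (0.60, adjusted p = 0.000194). Both genes showed tight pairs that did not overlap. Exons of Slc15a3 overlap those of Tmem132a on the opposite strand (longest overlap 1529 bases in GENCODE M21, GRCm38), which had a mean of 4.18 TPM and a log2 fold change of 0.84. Slc15a3 lies on chromosome 19 at 10842544 to 10857915.

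The class of peptide and vesicular anion carriers holds 5 members. Of these 3 rose (60%, beside 28.4% of all genes tested), 1 fell (20%, beside 32.4%) and 1 did not pass. Slc17a8, encoding the vesicular glutamate carrier VGLUT3, rose from 4.77 and 4.82 to 12.8 and 11.9 TPM (log2 fold change 1.21, adjusted p = 5.95e-05). Its relative Slc17a7 (VGLUT1) fell from 3.21 and 3.09 to 1.5 and 1.92 TPM (-0.62, adjusted p = 0.00427). Without any 1 library these counts were the same.

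Of 24 metal carriers 13 rose (54.2%, beside 28.4% of all genes tested), 8 fell (33.3%, beside 32.4%) and 3 missed the threshold. Their median log2 fold change was 0.19. In curated transcripts 7 metal carriers rose and 5 fell. Calls among all members dropped there too, to 39 rises and 45 falls of 169 tested. Slc40a1 encodes ferroportin, the known exporter of iron from cells, and had the largest change of all members. It was at 0.781 and 0.89 TPM untreated and 6 and 7.16 TPM treated, 7.87-fold by the ratio of means (log2 fold change 2.04, SE 0.11, adjusted p = 4.2e-05). Its untreated mean lay under 1 TPM, so it became a member through the treated libraries. In curated transcripts the change was 1.27 (adjusted p = 0.00483), and a predicted transcript held 66.9% of the gene's TPM. The macrophage markers C1qb, Ms4a7 and Fcgr1 were higher and Lyz2 lower in the same libraries, with the values given above, and their part in this result was not tested. Slc40a1 lies on chromosome 1 at 45908070 to 45926532.

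Other iron and heme carriers moved in both directions. Slc11a2, encoding DMT1, which passes ferrous iron from endosomes to the cytosol, rose from 19.1 and 17.4 to 27.4 and 26.4 TPM (log2 fold change 0.54). Slc11a1, encoding NRAMP1, which withdraws iron and manganese from phagosomes, fell from 33.6 and 35.8 to 26.1 and 27.3 TPM (-0.36). Neither call held in curated transcripts (adjusted p = 0.329 for Slc11a2 and 0.131 for Slc11a1), where Slc11a1 moved by -0.67. Slc48a1, the HRG1 carrier that exports heme from lysosomes, fell from 43 and 42.4 to 29.6 and 31.1 TPM (-0.48, adjusted p = 0.000336). Of 8 tested iron handling genes 5 rose (62.5%, beside 28.4% of all genes tested) and 2 fell (25%, beside 32.4%). They were led by the heme-degrading enzyme gene Hmox1 (221 and 234 to 492 and 541 TPM, 1.18). Next was the transferrin receptor gene Tfrc (71.8 and 69.2 to 47.7 TPM in both treated libraries, -0.56). Leaving out PolyIC01 left 3 rises, and leaving out any 1 library left 1 fall.

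More zinc carriers rose than fell. Slc30 proteins move zinc out of the cytosol and Slc39 proteins into it. Of 6 Slc30 members 4 rose (66.7%) and 1 fell (16.7%), and of 9 Slc39 members 5 rose (55.6%) and 3 fell (33.3%). Over all genes tested 28.4% rose and 32.4% fell. Slc30a1, the zinc exporter of the plasma membrane, went from 16.5 and 16.3 to 28.3 and 28.8 TPM (log2 fold change 0.76, adjusted p = 7.37e-05). Slc39a14, the importer ZIP14 of zinc and iron, went from 7.19 and 7.13 to 10.7 and 10.3 TPM (0.50). Both pairs were tight. Slc39a1, the importer ZIP1 and the most abundant metal carrier, was at 104 TPM in both untreated and 179 and 162 TPM in treated libraries (0.71), but its curated transcript was at 33.1 and 34.8 against 21.9 and 46.9 TPM, and in curated transcripts the change was -0.08 (adjusted p = 0.872).

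Among the zinc importers that fell were Slc39a10, from 15.3 and 16.2 to 10.3 and 9.99 TPM (log2 fold change -0.59), and Slc39a8, from 1.83 in both to 1.08 and 1.16 TPM (-0.42, and -0.66 with a pseudocount of 0.1), whose call was lost without PolyIC01 (adjusted p = 0.0595). Mtf1, the zinc-sensing factor that drives metallothionein genes, rose from 6.5 and 6.29 to 16.6 and 16 TPM (1.23). The metallothionein gene Mt1 rose from 624 and 700 to 825 and 851 TPM (0.34). Of 3 tested genes of that list 2 rose (66.7%, beside 28.4% of all genes tested) and none fell. The copper importer gene Slc31a1 fell slightly, from 48.1 and 48.3 to 39.6 and 38.7 TPM (-0.29). Slc39a11 had no usable value, at 3.87 and 12.6 TPM untreated and 6.98 and 3.52 TPM treated, the widest gap within a group of all members (named after its values were seen).

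**Figure D4:**
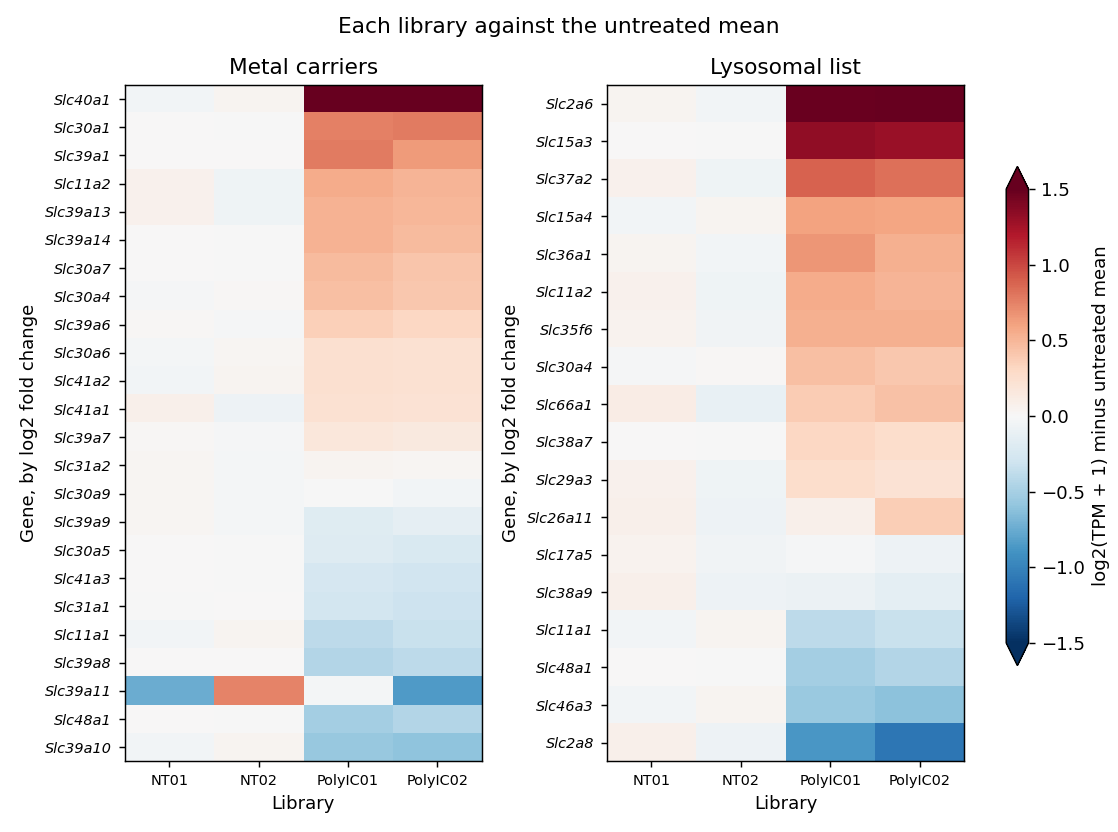
log2(TPM + 1) of each library minus the mean of the untreated libraries, for the 24 metal carriers (left) and the 18 members on the lysosomal list (right), with colours saturating at 1.5. Most rows show alike colours in both treated libraries, while Slc39a11 differs between libraries of the same group.

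The lysosomal list, 21 carriers known from lysosomes and late endosomes, has 18 members. Of these 11 rose (61.1%, beside 28.4% of all genes tested), 4 fell (22.2%, beside 32.4%) and 3 missed the threshold. The median log2 fold change was 0.35 on the list and -0.02 over all genes tested. In curated transcripts 7 rose, where rises among all members dropped to 39 of 169 tested. The list shares genes with the classes above and was drawn up with earlier results of these data known. Slc2a6, Slc15a3, Slc37a2 and Slc15a4 led it, and Slc2a8, Slc46a3, Slc48a1 and Slc11a1 were the members that fell. Slc46a3, a lysosomal carrier reported to pass muropeptides and drug-linker fragments, fell from 53.5 and 56.3 to 37.1 and 35.5 TPM (log2 fold change -0.58, adjusted p = 0.000179).

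Family Slc25, whose 37 members were classed as mitochondrial carriers by family and not by the site of each protein, lay near the background. In it 10 rose (27%, beside 28.4% of all genes tested), 14 fell (37.8%, beside 32.4%), and 13 missed the threshold. The class median was -0.09 on the log2 scale. In curated transcripts, where rises among all members dropped to 39 of 169 tested, 5 of these carriers rose. Their summed level was 2590 and 2611 TPM untreated and 2381 and 2399 TPM treated, with much of it in Slc25a5, the ADP/ATP exchanger ANT2. Slc25a5 fell from 695 and 714 to 515 and 533 TPM (-0.43, SE 0.0288, adjusted p = 0.000101). It is close in sequence to Slc25a4, so the split of TPM between them is uncertain.

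Slc25a38, the glycine carrier needed for heme synthesis, went from 35.1 and 37 to 84.5 and 86.2 TPM (log2 fold change 1.22, adjusted p = 9.33e-06). Values of Slc25a38 more than doubled in each treated library over either untreated one. Slc25a47 went from 1.02 and 0.784 to 3.25 and 2.85 TPM (1.09), all of it in 1 predicted transcript, so it has no value in curated transcripts. Its untreated mean was 0.903 TPM, so it reached the limit through the treated libraries. With a pseudocount of 0.1 the change of Slc25a47 was 1.66.

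The falls in family Slc25 included an iron importer. Slc25a37, encoding mitoferrin 1, which brings iron into the matrix, fell from 6.64 and 5.61 to 3.85 and 3.55 TPM (log2 fold change -0.60, adjusted p = 0.00389). Its more abundant relative Slc25a28, mitoferrin 2, was at 83.8 and 75.2 against 89.3 and 90.8 TPM (0.18, adjusted p = 0.0343), a call lost without NT02, PolyIC01 or PolyIC02 (adjusted p from 0.0809 to 0.117), with a change of 0.10 without NT02 and 0.04 in curated transcripts. Slc25a35, an orphan carrier, fell from 3.75 and 3.07 to 1.37 and 1.78 TPM (-0.78), and Slc25a23, a calcium-regulated carrier of ATP-magnesium and phosphate, from 9.03 and 7.76 to 5.61 and 4.79 TPM (-0.60). Exons of Slc25a35 overlap those of Rangrf on the opposite strand by up to 545 bases, and the log2 fold change of Rangrf was -0.66. Slc25a1, the citrate exporter, moved little, from 96.3 and 98.3 to 89.4 and 90.8 TPM (-0.11, adjusted p = 0.0239), and its call was lost without NT02, PolyIC01 or PolyIC02 (adjusted p from 0.0709 to 0.124).

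Carriers of Slc families that go by other symbols were read beside them. Among 23 with a test, 5 rose (21.7%, beside 28.4% of all genes tested), 10 fell (43.5%, beside 32.4%) and 8 missed the threshold. Of those that passed, the largest rise and fall were in Sfxn5, a sideroflexin of the mitochondrial membrane (3.08 and 3.15 to 5.37 and 5.52 TPM, log2 fold change 0.65), and Mpc2, a subunit of the mitochondrial pyruvate carrier (124 TPM in both to 83.1 and 84 TPM, -0.56).

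Among 12 carriers of nucleosides, vitamins and cofactors 5 rose (41.7%, beside 28.4% of all genes tested) and 5 fell (41.7%, beside 32.4%). The other 2 did not pass. No member overlapped between groups, which was also so for 81.3% of all genes tested. In curated transcripts 3 rose, where rises among all members dropped to 39 of 169 tested. Slc19a2, the thiamine importer THTR1 of the plasma membrane, rose from 11 and 10.1 to 24.3 and 22 TPM (log2 fold change 1.07, SE 0.0745, adjusted p = 0.000114). Slc33a1, which passes acetyl-CoA into the ER, went from 30 and 30.2 to 43.9 and 42.8 TPM (0.51). Slc49a4, a carrier linked to pyridoxine, went from 0.614 and 0.624 to 1.45 and 1.34 TPM (0.56, and 1.06 with a pseudocount of 0.1), and reached the limit through the treated libraries.

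Nucleoside and folate importers fell. Slc29a1, the equilibrative nucleoside carrier ENT1, went from 30.4 and 27.2 to 14.7 and 11.8 TPM (log2 fold change -1.07, SE 0.115, adjusted p = 0.000746). Much of its TPM (65.6%) sat in 1 predicted transcript, and in curated transcripts the change was -0.44 (adjusted p = 0.151). Slc19a1, the reduced folate carrier, fell from 5.28 and 4.98 to 2.14 and 2.63 TPM (-0.86, adjusted p = 0.00098). Slc29a3, the lysosomal nucleoside exporter ENT3, was at 4.84 and 4.38 against 5.73 and 5.51 TPM (0.24, adjusted p = 0.0499), and that call was lost without NT02, PolyIC01 or PolyIC02 (adjusted p from 0.13 to 0.208). In curated transcripts its change was 0.06. The related importer genes Slc46a1 and Slc46a2 were no members: the first lay between 0.0947 and 0.137 TPM and the second was listed at 0.

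Inorganic ion carriers split evenly. Of 24, 7 rose (29.2%, beside 28.4% of all genes tested), 7 fell (29.2%, beside 32.4%) and 10 did not pass. The deepest fall of all members was in Slc9a9, encoding the sodium and proton exchanger NHE9 of recycling endosomes, which limits their acidity. It went from 19.6 and 18.6 to 5.38 and 4.98 TPM, 3.69-fold lower by the ratio of means (log2 fold change -1.70, SE 0.0686, adjusted p = 1.67e-05), all of it in 1 curated transcript. Slc9a9 lies on chromosome 9 at 94669557 to 95230453. Slc20a2, a sodium-driven phosphate importer, fell from 21.5 and 19.3 to 11.9 and 11.6 TPM (-0.74).

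The largest rises among ion carriers were in Slc8b1, Slc12a9 and Slc4a11. Slc8b1, the mitochondrial sodium and calcium exchanger NCLX, was the most abundant ion carrier and rose from 178 and 157 to 327 and 315 TPM (log2 fold change 0.94, SE 0.0629, adjusted p = 0.000154). Slc12a9, an atypical member of the cation and chloride cotransporter family, went from 49.4 and 45.2 to 88 and 85.9 TPM (0.87). Slc4a11, of the bicarbonate carrier family, was lower, at 2.49 and 2.47 TPM untreated and 6.75 and 7.23 TPM treated (1.20, adjusted p = 0.000103). In each of the 3 genes the groups were well apart.

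Of 14 lipid, choline and organic ion carriers 6 fell (42.9%, beside 32.4% of all genes tested) and 1 rose (7.14%, beside 28.4%). Their median log2 fold change was -0.11. Slc22a23, an orphan of the organic ion family, fell from 4.03 TPM in both to 1.48 and 1.56 TPM (-0.99, adjusted p = 0.000245), and Slc27a4, the long-chain fatty acid carrier FATP4, from 20.2 and 21.9 to 13 and 13.7 TPM (-0.62, adjusted p = 0.000546). Slc22a18, a carrier of unsettled substrate, went from 12.6 and 12.9 to 9.38 and 9.49 TPM (-0.40). The rise was in Slco3a1, an organic anion carrier, from 144 and 140 to 151 and 156 TPM (0.11, adjusted p = 0.0267), and was lost without NT02 (adjusted p = 0.101) or PolyIC02 (0.138) and with quantile normalization (0.06). Without either of those libraries 0 of the class rose, and without NT01 2 did. All 14 members lay between -0.99 and 0.20.

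Nucleotide sugar carriers of the Golgi and ER, which supply glycosylation, had the narrowest range of changes among the classes. Of 11 members 2 rose (18.2%, beside 28.4% of all genes tested), 4 fell (36.4%, beside 32.4%) and 5 missed the threshold. All lay between -0.44 and 0.24. Slc35c2, a carrier acting in fucosylation, fell from 118 TPM in both to 85.9 and 87 TPM (log2 fold change -0.44, adjusted p = 8.41e-05), and Slc35a3, the carrier of UDP-N-acetylglucosamine, from 67.7 and 65.1 to 50.2 and 49 TPM (-0.41, adjusted p = 0.000344). The remaining named changes were small and lost their calls without some library: Slc35b1, which passes ATP into the ER, at -0.11, Slc35d2 at -0.22, the sulfate donor carrier gene Slc35b3 at 0.24 and the GDP-fucose carrier gene Slc35c1 at 0.19. Their adjusted p then ran from 0.0532 to 0.0882 for Slc35b1 (without NT02, PolyIC01 or PolyIC02) and from 0.079 to 0.14 for Slc35c1 (the same libraries). It was 0.0936 and 0.171 for Slc35d2 without NT02 and without PolyIC02, and 0.0687 for Slc35b3 without PolyIC01 and 0.117 in its curated transcripts. Between 0 and 1 of the class rose without NT02, PolyIC01 or PolyIC02, and 2 fell without PolyIC02. In curated transcripts the change of Slc35b1 was -0.17.

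Of 9 members with other or unsettled substrates 2 rose and 5 fell, and 4 rose without NT01. With all 4 libraries, 22.2% of them rose and 55.6% fell, beside 28.4% and 32.4% of all genes tested. Slc14a1, a urea carrier, fell from 5.14 and 5.04 to 2.13 and 1.79 TPM (log2 fold change -1.04, adjusted p = 0.000344). Slc35g1 fell from 16.2 and 17.1 to 9.27 and 9.2 TPM (-0.79). Slc35f2 fell from 3.37 and 3.22 to 1.8 and 2.09 TPM (-0.55), a call absent in curated transcripts (adjusted p = 0.109). Slc66a2, the most abundant of them, fell from 149 and 158 to 120 and 129 TPM (-0.30). Slc35f6, found on lysosomes, rose from 17.7 and 16.4 to 25.1 and 25 TPM (0.53), and Slc35f5 from 10.7 and 10.3 to 14.6 and 14.7 TPM (0.44).

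Another 3 members carry an Slc symbol without being carriers. Slc9a3r2, encoding the scaffold NHERF2 that holds exchangers at the membrane, fell from 12.8 and 12.5 to 4.38 and 4.84 TPM (log2 fold change -1.28, SE 0.0742, adjusted p = 5.56e-05). Its relative Slc9a3r1 (NHERF1) was at 27.4 and 28.2 against 30 and 30.8 TPM (0.12, adjusted p = 0.0575), and passed with TMM-type rescaling (0.14, adjusted p = 0.0478).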

How the data were processed

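RNA of 3 untreated and 3 poly(I:C) samples was sequenced, and 4 of 6 value columns of the deposited table were used; 2 columns of per-sample values were not, because the header has 5 names for 6 columns with an empty cell after NT01. Per the submitters' processing notes, which give no role or order, the tools include kallisto 0.42.4 and bcl2fastq 2.20.0.422, and the build is GRCm38. The authors deposited TPM per RefSeq transcript (named FPKM, but each column sums to 1000000); use of strand and depth are not given in the sources used here. TPM of 86722 of 107384 transcripts (80.8%, holding 91.8% to 92.2% of TPM) were summed by symbol through the RefSeq gene table (GRCm38.p6). The 12520 genes whose mean reached 0.5 TPM were tested on log2(TPM + 1) with limma 3.58.1 (R 4.3.3; trend and robust moderation, 2 residual degrees of freedom), adjusted by Benjamini-Hochberg at 0.05, after a check on simulated data. An exact permutation test of 2 against 2 cannot go below p = 0.333 (two-sided). Rose and fell mean past that threshold. Tables were made with pandas 2.3.3 and numpy 2.4.6 in Python 3.11.15, and plots with matplotlib 3.10.9.

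Members, classes and lists were chosen with earlier results of these data known. Classes follow gene families except where single genes were assigned a class by name, so that Slc16, Slc35 and Slc66 are each split between classes. The class of Slc49a4 was corrected after values were seen. Named members are, per class, up to 3 rises and 3 falls of largest change that passed, the most abundant and preset genes; per partner list, up to 2 that passed; some genes that the rule names are not reported here. Alternatives were 2 pseudocounts, 2 filters, plain limma, 2 rescalings, curated transcripts and leaving out each library. Exons of 47 members overlap an exon on the opposite strand in GENCODE M21, 14 of them with a partner at 1 TPM or more. Beside Slc15a3 and Slc25a35, these include Slc20a2 (Smim19, log2 fold change -0.36) and Slc7a7 (Oxa1l, 0.24).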

Additional observations from a re-analysis of the deposited data

How the results depend on the processing

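The counts of members that rose (56) and fell (62) stayed within 1.5 times under all 12 alternatives run. They were lowest in curated transcripts, where 169 members could be tested and 39 rose and 45 fell, and rises were most frequent with TMM-type rescaling (61) and falls with quantile normalization (70). A call held under every alternative run for 36 of the members that rose and 36 of those that fell. Of 88 named genes with a fit, partner genes included, 65 kept direction and side of the threshold throughout; of 1047 gene values under alternatives, 983 did so, 57 lost the call, 4 gained one and 3 changed direction. The values that changed direction were Slc16a3 in curated transcripts (-0.12) and without NT01 (-0.30), against 0.20 (leaving out 1 library at a time gave -0.30 to 0.70), and Slc39a1 in curated transcripts (-0.08), against 0.71. The cause was not tested. No paired analysis was possible because the shifted header leaves the replicate numbers of 3 of the 4 columns unsettled. TPM keeps no depth, so the precision of low members is unknown.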

Other observations

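Of the 207 Slc genes under the limit, 17 reached a mean of 0.5 TPM and were tested. Of these 4 rose (23.5%, beside 28.4% of all genes tested), 1 fell (5.88%, beside 32.4%) and 12 did not pass. The rises were in Slc12a3, the thiazide-sensitive sodium and chloride cotransporter (0.183 and 0.175 to 0.951 and 0.845 TPM, log2 fold change 0.69 in limma), Slc18a1, a vesicular amine carrier (0.464 and 0.406 to 0.951 and 1.32 TPM, 0.57), Slc22a15 (0.589 and 0.478 to 1.11 and 1.13 TPM, 0.47) and Slco2a1, the prostaglandin carrier (0.33 and 0.321 to 0.82 and 0.727 TPM, 0.42). The fall was in Slc34a1, a sodium-driven phosphate importer (1.34 and 1.21 to 0.674 and 0.523 TPM, -0.51). The untreated means of Slc12a3 (0.179 TPM), Slc18a1 (0.435 TPM) and Slco2a1 (0.325 TPM) lay under the limit of 0.5 TPM for testing, so these 3 were tested only because of their treated values, and the limit itself favoured a rise. These genes were named after their values were seen.

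In 5 members the libraries of 1 group lay more than 0.5 apart on the log2(TPM + 1) scale, where the median member's larger within-group gap was 0.11. They were Slc39a11 (1.48), Slc16a3 (1.00), Slc25a22 (0.99), Slc12a5 (0.70) and Slc7a7 (0.56). The curated transcript of Slc25a22 that held 78% of its TPM was at 4.21 and 1.72 TPM untreated and 1.01 and 5.08 TPM treated, while the other was at 0.51 and 0.448 against 1.51 and 0.918 TPM.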
